A study of Mus musculus with 22 samples.

Results

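The genes described here are 40 members of the fatty acid oxidation pathway and of the peroxisome proliferator-activated receptor (PPAR) system that drives it, out of 21898 named genes in the count table. They were taken from a list by gene name, which was drawn up with earlier results of these data known, and all 40 were found and passed the filter on low counts. By role, 7 were regulators, 5 acted in uptake and activation, 6 in the carnitine shuttle and its control, 15 were enzymes or electron carriers of the mitochondrial matrix, 4 were thioesterases and uncoupling proteins, 2 were ketone enzymes and 1 was peroxisomal.

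RNA was sequenced from whole hearts of male mice, in 11 libraries that fall into 3 groups, and the labels name no transgene or deletion. The mice were 6 weeks old when divided into groups, and hearts were taken after the 3 weeks of the procedure. The control group (n = 3) was housed without stress. The case group (n = 4) went through a chronic unpredictable stress procedure lasting 3 weeks, with stressors such as restraint, forced swimming and social defeat. The treatment group (n = 4) went through the same stress and received JWH133, an agonist of the cannabinoid type II receptor, at 10 mg/kg by intraperitoneal injection 2 times a day over the 3 weeks. Neither the strain nor whether the other mice received vehicle injections is given in the sources used here, so the agonist and the injection cannot be told apart. Libraries are named below by group and by the letter of their column, which carries no replicate number.

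Adult heart muscle makes most of its ATP by oxidising fatty acids. Fatty acids enter through membrane carriers, are activated to acyl-CoA, pass into mitochondria by the carnitine shuttle and are shortened in the matrix by repeated dehydrogenation, hydration and thiolysis. PPARα, PPARδ and PPARγ are nuclear receptors that bind DNA as partners of the retinoid X receptors, sense fatty acids and switch on genes of this pathway, and the coactivators PGC-1α and PGC-1β amplify their activity together with the oestrogen-related receptors.

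Total counts per library ranged from 29410822 to 34412849, and 15407 to 15767 genes had a count. The defining cardiomyocyte markers were abundant in every library, with a summed level of 18600 to 19500 FPKM (counts scaled by exon length and library total) in control, 13600 to 18900 in case and 17100 to 19900 in treatment hearts. FPKM leaves out the scaling factors between libraries that the fold change tests apply, which ran from 0.927 to 1.061. Libraries that lie close can therefore change order between FPKM and the tested scale. Case library d stood apart from the other case libraries. On the first principal component of all genes tested it lay at -9.8, against 29.7 to 64.6 for case libraries a to c, -27.7 to -23.3 for control and -22.7 to -9.9 for treatment libraries. Where leaving it out changes the call of a member, or of a further pathway gene given with its values, both values are given. For cell type markers only the change of call is given.

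Promoter sequences of 3 members are shown because the members differed in response while sharing a place in one pathway. Ucp3, an uncoupling protein of muscle mitochondria, and Ehhadh, the peroxisomal bifunctional enzyme, both changed, whereas Acadm, the medium-chain acyl-CoA dehydrogenase, had no call in any comparison. The sequences are the 250 bases before the RefSeq start (mouse build GRCm38.p6), read 5′ to 3′ on the gene's strand, from chr7:100472741-100472990 (+ strand) for Ucp3, chr16:21787835-21788084 (- strand) for Ehhadh and chr3:153944644-153944893 (- strand) for Acadm. Capitals mark the nuclear receptor half-site AGGTCA, or TGACCT where it lies on the opposite strand.
Ucp3: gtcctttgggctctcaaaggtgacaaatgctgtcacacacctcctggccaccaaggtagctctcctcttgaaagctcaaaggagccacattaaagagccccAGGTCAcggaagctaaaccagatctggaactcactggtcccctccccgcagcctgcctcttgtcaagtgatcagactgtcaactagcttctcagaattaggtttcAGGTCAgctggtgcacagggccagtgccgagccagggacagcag
Ehhadh: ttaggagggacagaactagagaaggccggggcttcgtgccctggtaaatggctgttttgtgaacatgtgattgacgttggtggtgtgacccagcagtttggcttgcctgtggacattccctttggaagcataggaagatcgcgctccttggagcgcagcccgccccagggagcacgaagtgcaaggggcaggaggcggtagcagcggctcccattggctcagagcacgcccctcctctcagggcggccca
Acadm: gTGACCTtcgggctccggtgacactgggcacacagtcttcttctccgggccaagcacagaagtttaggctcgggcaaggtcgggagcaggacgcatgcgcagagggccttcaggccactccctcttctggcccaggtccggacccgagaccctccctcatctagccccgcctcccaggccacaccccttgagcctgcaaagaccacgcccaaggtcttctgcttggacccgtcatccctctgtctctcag
The Ucp3 stretch held 2 half-sites, which begin 149 and 44 bases before the start, the Acadm stretch held 1, and the Ehhadh stretch held 0.

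RefSeq windows of 300 bases, reaching from 250 bases before the start to 50 after it, were matched by symbol to 36 of the 40 members, with 43 windows in all. The half-site, searched on both strands, was present in 9 of these 43 windows (20.9%) and in 16.3% of all 32851 windows of the same length. The member genes with it were Acacb, Acadm, Acadvl, Cpt1a, Echs1, Pparg, Rxra and Ucp3. The full PPAR element searched for, a pair of half-sites with 1 base between them (AGGTCANAGGTCA), was in 0 of the member windows and in 0.0396% of all windows. The oestrogen-related receptor element TNAAGGTCA, which contains the half-site, was in 0 member windows and in 1.28% of all windows. These letter matches describe the sequence only.

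In control hearts the members spanned a wide range of levels, as the plot of control levels shows. Fabp3, the cytosolic fatty acid binding protein of heart, was highest at 1618 ± 23.3 FPKM (SD, n = 3). Acadl, the long-chain acyl-CoA dehydrogenase, followed at 575 ± 21.7 FPKM, and Oxct1, an enzyme of ketone body use, at 504 ± 5.51 FPKM. The regulators lay lower, from 4.85 ± 0.404 FPKM for Ppard to 27.7 ± 3.65 FPKM for Ppargc1a. Among the PPARs, Ppara at 23.3 ± 0.609 FPKM was above Pparg at 5.38 ± 0.783 FPKM and Ppard in every control library. The last pair did not differ beyond the spread between libraries.

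**Figure D1:**
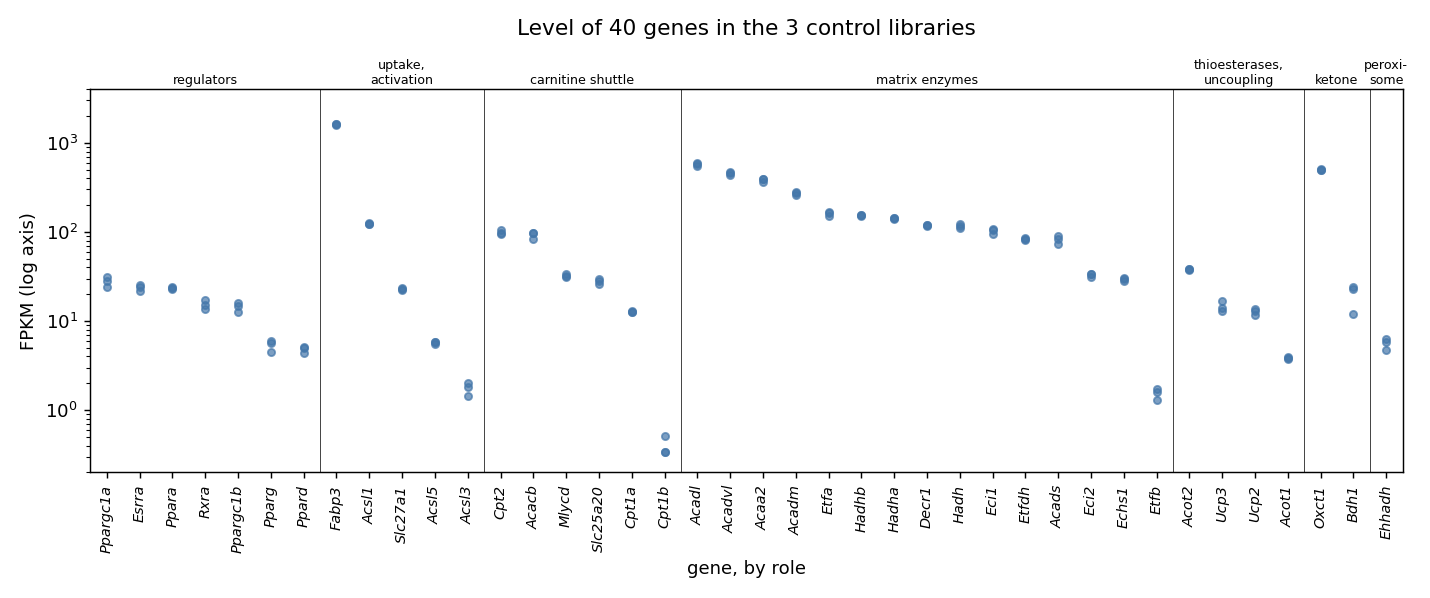
Level of the 40 genes in the 3 control libraries. The x axis lists genes by role and falling mean, the y axis gives FPKM on a log axis, and each point is 1 library. Fabp3 is highest with a mean of 1618 FPKM, and Cpt1b (0.395 FPKM) and Etfb (1.54 FPKM) lie below the other members of their roles.

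The lowest member was Cpt1b, the muscle form of the carnitine acyltransferase at the outer mitochondrial membrane, at 0.337, 0.34 and 0.508 FPKM in control, 0.149 to 0.574 in case and 0.403 to 0.535 in treatment libraries. Etfb, a subunit of the electron carrier that takes electrons from the acyl-CoA dehydrogenases, was at 1.54 ± 0.213 FPKM in control hearts, whereas its partner subunit Etfa was at 161 ± 8.12 FPKM. Both low genes share exon sequence with another annotated gene on the same strand. For Cpt1b (chr15:89416405-89425863, build mm10), 81.4% of the exon bases lie in Gm44502, and for Etfb (chr7:43444083-43457800) 53.0% lie in Gm45233. Each of these overlapping genes had 0 reads in all 11 libraries. How reads on shared exons were counted is not given in the sources used here, and the part of the overlap in the low levels was not tested. Acadvl, the very long-chain acyl-CoA dehydrogenase, shares 42.9% of its exon bases with Dvl2 on the opposite strand, which had 165 to 355 reads.

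Stressed hearts were first compared with control hearts. With edgeR's quasi-likelihood test and Benjamini-Hochberg adjustment over all 14050 genes tested, 8 of the 40 members rose and 2 fell in case hearts at an adjusted p under 0.05, and 30 had no call. Of all genes tested, 8.21% were called higher and 7.55% lower, against 20% and 5% of the members. The members that rose were Pparg, Ppargc1a, Slc27a1, Acsl3, Mlycd, Ucp3, Bdh1 and Ehhadh, and those that fell were Oxct1 and Cpt2. The median log2 fold change of the 40 members was 0.06, and that of all genes was 0.01. Because the tissue is a whole heart, fewer cells of a type and less RNA per cell cannot be told apart.

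These counts depended on single libraries. Without case library d, 13 members were called higher and 3 lower. Calls over all 14050 genes tested rose as well, from 1154 higher and 1061 lower to 2310 and 2177. Without control a, b or c, the members called higher numbered 1, 1 and 0, and those called lower 0 each time. Calls over all genes fell as well in these fits, to 298, 332 and 330 higher and 409, 468 and 420 lower. The count of higher members was 2 without case a, 3 without case b, and 5, 4 and 4 without treatment a, c and d, and the count of lower members was 1 without case a, case c, treatment b or treatment c. Over all genes, higher calls numbered 577 and 753 without case a and b, and 952, 870 and 905 without treatment a, c and d. Lower calls over all genes numbered 629, 855, 889 and 854 without case a, case c, treatment b and treatment c.

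JWH133-treated stressed hearts were then compared with stressed hearts. In treatment against case, 0 members rose and 7 fell, namely Pparg, Ppargc1a, Slc27a1, Mlycd, Ucp2, Ucp3 and Ehhadh, while 4.33% of all genes were called higher and 6.57% lower. For the count of 0 higher, 1 member was higher at an unadjusted p under 0.05, and DESeq2 called 0. The 40 members had a median log2 fold change of -0.06. The same 4 case libraries enter both comparisons, so a case value that lies apart moves both, in opposite directions.

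Without case d, 1 member was called higher and 15 lower in treatment against case. Calls over all 14050 genes rose from 608 higher and 923 lower to 2119 and 2271. The 7 lower calls became 4 without any 1 of the control libraries, 2 without case a, 3 without case b, and 1, 2, 3 and 2 without treatment a, b, c and d. Over all genes the 923 lower calls also became fewer, at 573, 588 and 523 without control a, b and c. They numbered 253 and 359 without case a and b, and 271, 238, 364 and 289 without treatment a to d.

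Treated stressed hearts were last set against control hearts. Here 0 members were called higher and 0 lower by edgeR, and 0.292% of all genes were called higher and 0.79% lower. At an unadjusted p under 0.05, 0 members were higher and 5 lower, and DESeq2 called 1 lower. The 5 were Ppard (log2 fold change -0.34), Fabp3 (-0.28), Cpt2 (-0.34), Oxct1 (-0.28) and Ucp2 (-0.55), with adjusted p from 0.134 to 0.357. The gene called by DESeq2 was Cpt2 (adjusted p = 0.0314).

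The study's own thresholds, an unadjusted p under 0.05 with an absolute log2 fold change above 1, were also applied to the edgeR fit. In case against control 4 members were higher (Acot1, Ucp3, Bdh1 and Ehhadh) and 1 lower (Ppargc1b), where 3.85% and 3.38% of all genes passed. In treatment against case 0 were higher and 4 lower (Acot1, Ucp2, Ucp3 and Ehhadh), where 2.27% and 3.07% of all genes passed. In treatment against control 0 passed in either direction, where 1.34% of all genes were higher and 1.63% lower.

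**Figure D2:**
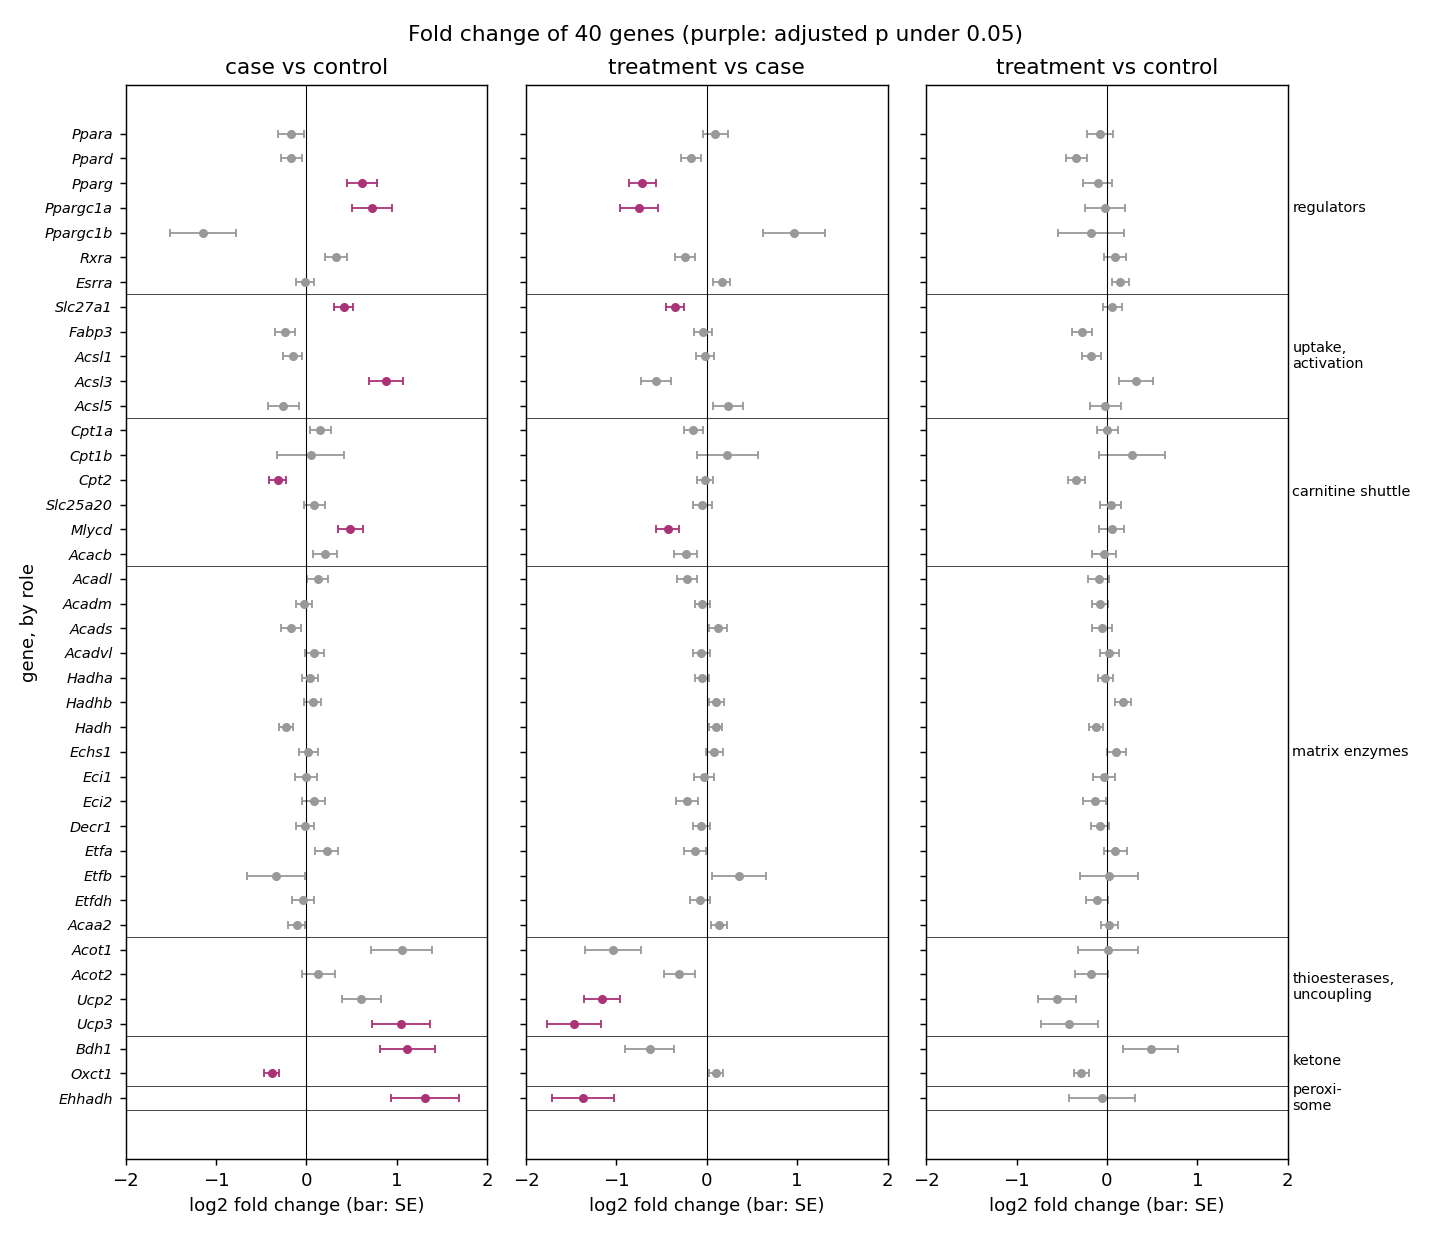
Log2 fold change of the 40 genes in 3 comparisons, from edgeR. Rows are genes by role, points are estimates, bars are standard errors, and purple marks an adjusted p under 0.05. In case against control 8 genes are called higher and 2 lower, in treatment against case 7 are called lower, in treatment against control 0 are called, and the 15 matrix enzymes stay grey in all 3 panels.

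Among the regulators, 2 of 7 rose in case hearts, 0 fell, and the same 2 fell in treatment against case. They were Pparg and Ppargc1a. Pparg encodes PPARγ, the receptor best known for its role in fat cells. Its level was 4.5, 5.67 and 5.99 FPKM in control libraries a to c, 8.29, 9.66, 7.6 and 6.89 in case a to d, and 4.89, 5.62, 5.46 and 4.36 in treatment a to d. Every case library was above every control and every treatment library. The log2 fold change was 0.61 ± 0.163 (SE) in case against control (adjusted p = 0.028) and -0.71 ± 0.15 in treatment against case (adjusted p = 0.0183). The first call was lost without control a, b or c or case a or b (adjusted p up to 0.117), and the second without case a, treatment a or treatment d (up to 0.0548).

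Ppargc1a encodes PGC-1α, the coactivator tied to mitochondrial biogenesis. It was at 23.8, 28.3 and 31.1 FPKM in control, 58.9, 54.4, 31.6 and 34.7 in case and 28.8, 26.3, 26.9 and 28.5 in treatment libraries. Case a and b were far above the others, and in FPKM case c lay just above control c, the highest control library. With the scaling factors of the fit (1.027 for case c, 0.996 for control c), case c was not above control c. The estimates were 0.73 ± 0.226 (adjusted p = 0.0489) and -0.75 ± 0.207 (adjusted p = 0.0413), and each call was kept only in the fits without case c and without case d (adjusted p up to 0.173 and 0.122 when another library was omitted).

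Ppargc1b, which encodes the related coactivator PGC-1β, was lower in 3 of the 4 case libraries than in any control library. Control libraries were at 14.7, 16.1 and 12.7 FPKM and case libraries at 3.01, 3.99, 6.16 and 13.7. Treatment libraries were at 13.6, 10.9, 11.2 and 16.05 FPKM. Case a to c were below all other libraries and case d lay within the control range. With all libraries the log2 fold change was -1.14 ± 0.365 in case against control (adjusted p = 0.0534) and 0.96 ± 0.344 in treatment against case (adjusted p = 0.0858), so neither passed. Without case d the values were -1.70 (adjusted p = 0.000168) and 1.52 (adjusted p = 0.000316).

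Ppara encodes PPARα, the form most closely linked to fatty acid oxidation in heart. It was at 23.9, 23.3 and 22.7 FPKM in control, 15.7, 24.2, 23.3 and 18.7 in case and 24.9, 22.1, 19.5 and 22.8 in treatment libraries. The groups overlapped, and the estimate for case against control was -0.17 ± 0.145 (adjusted p = 0.436). Ppard encodes PPARδ, which is present in most tissues. Its level was 5.16, 4.39 and 5.003 FPKM in control, 4.34, 4.78, 4.05 and 3.88 in case and 3.69, 4.03, 3.72 and 4.06 in treatment libraries. All treatment libraries were below all control libraries, with a log2 fold change of -0.34 ± 0.116 that did not pass (adjusted p = 0.256).

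Rxra encodes the retinoid X receptor α, the DNA-binding partner of the PPARs. It was at 17.0, 13.7 and 15.0 FPKM in control, 18.1, 20.02, 22.0 and 15.9 in case and 15.4, 17.0, 17.1 and 16.4 in treatment libraries. Case a to c were above the rest and case d was among the controls. The estimate was 0.33 ± 0.122 in case against control (adjusted p = 0.0857), and it was 0.43 without case d (adjusted p = 0.00344). Between treatment and case hearts it was -0.24 ± 0.112 (adjusted p = 0.174), and -0.34 without case d (adjusted p = 0.00959). Esrra encodes the oestrogen-related receptor α, which drives mitochondrial genes with PGC-1α. At 25.1, 21.8 and 24.3 FPKM in control, 20.9, 21.04, 25.6 and 26.2 in case and 30.6, 26.6, 26.3 and 23.1 in treatment libraries it overlapped between groups (case against control -0.02 ± 0.098, adjusted p = 0.931).

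**Figure D3:**
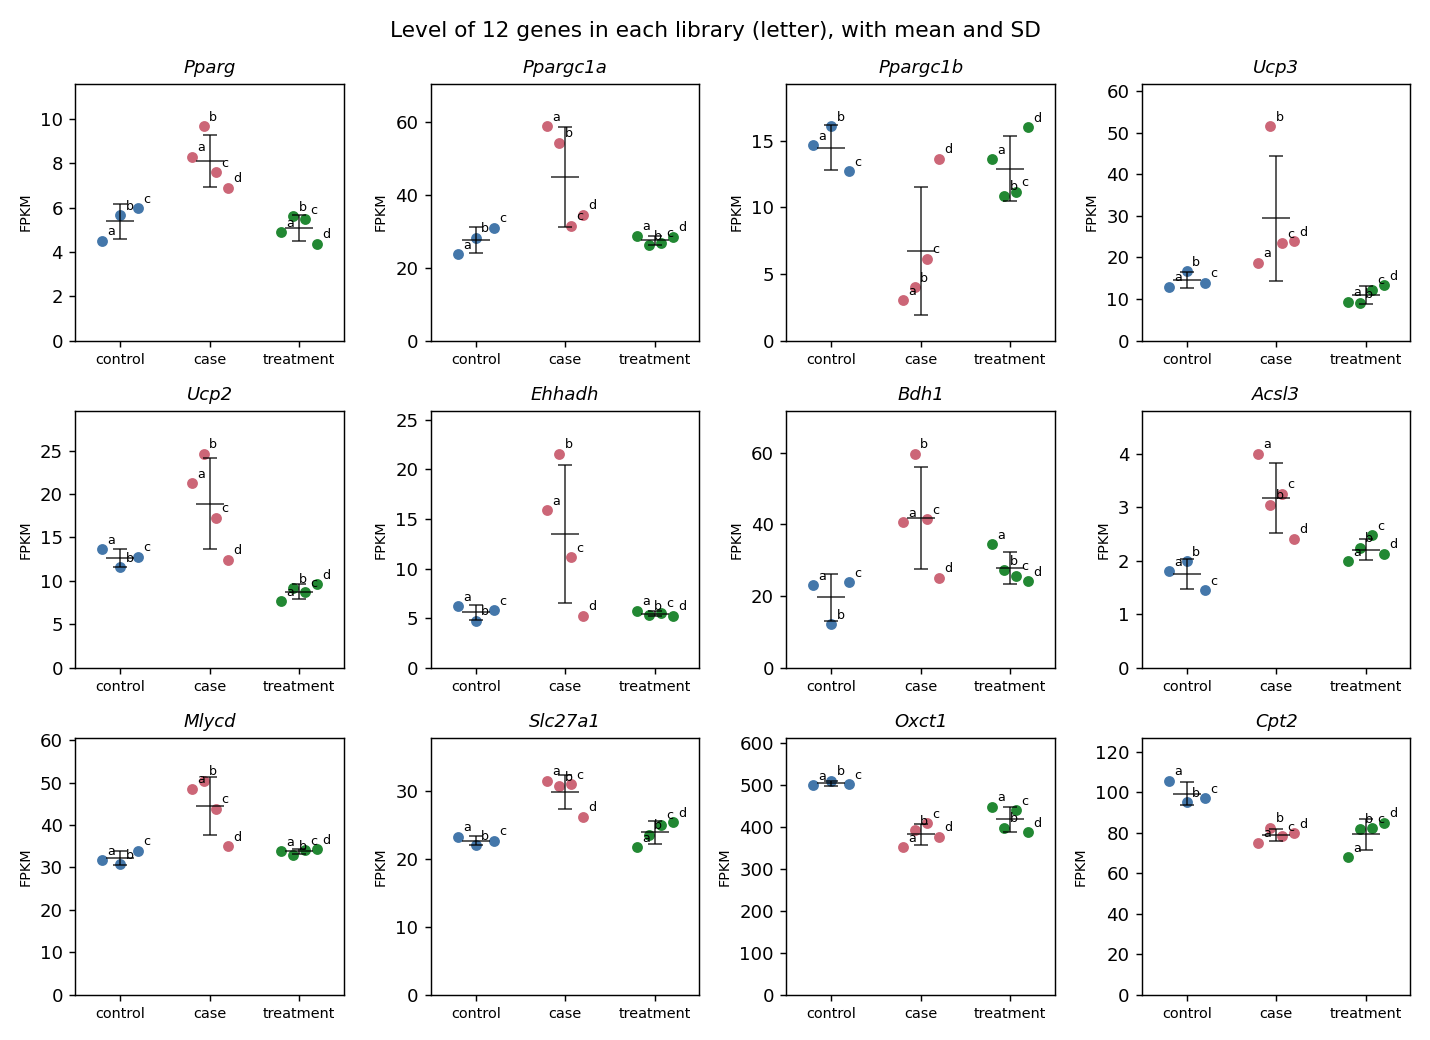
Level of 12 genes in each library. Each panel has the 3 groups on the x axis and FPKM on a y axis from 0, points are libraries with their letter, and black bars give the mean and SD. Pparg is higher in all case libraries (6.89 to 9.66 FPKM) than in control and treatment libraries, and case d lies near the control level for Ppargc1b, Ucp2, Ehhadh, Bdh1 and Mlycd.

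Of the 5 genes of uptake and activation, 2 rose in case hearts, 0 fell, and 1 fell in treatment against case. Slc27a1, a transport protein that brings long-chain fatty acids into the cell, was at 23.3, 22.0 and 22.8 FPKM in control libraries, 31.6, 30.8, 31.1 and 26.3 in case and 21.8, 23.6, 25.1 and 25.4 in treatment libraries. The case libraries lay above all others in FPKM. With the scaling factors of the fit (1.061 for case d, 0.998 for treatment d), case d was not above treatment d. The log2 fold changes of Slc27a1 were 0.41 ± 0.104 (adjusted p = 0.0219) and -0.35 ± 0.0953 (adjusted p = 0.0388). The first call was lost without control a, b or c or case a (adjusted p up to 0.0836). The second was kept only in the fit without case d (adjusted p up to 0.112 in the others).

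Acsl3, an acyl-CoA synthetase of the endoplasmic reticulum and lipid droplets, was a low-level member at 1.81, 1.99 and 1.45 FPKM in control, 4.01, 3.05, 3.25 and 2.42 in case and 1.995, 2.25, 2.48 and 2.13 in treatment libraries. Every case library was above every control library, while case d overlapped the treatment libraries. It rose by 0.88 ± 0.187 on the log2 scale in case hearts (adjusted p = 0.0115), a call lost only without control c (adjusted p = 0.0574), and the estimate of -0.56 ± 0.17 in treatment against case missed the threshold (adjusted p = 0.0526). DESeq2 called Acsl3 lower in that comparison, and without case d the edgeR estimate was -0.70 (adjusted p = 0.00322). Acsl1, the main synthetase of heart, had 124 to 127 FPKM in control, 104 to 122 in case and 105 to 119 in treatment libraries. Fabp3 was at 1591 to 1634, 1300.1 to 1449.8 and 1199.9 to 1596 FPKM. Neither of these abundant genes had a call in any comparison, and the same held for Acsl5, a synthetase of the outer mitochondrial membrane.

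In the carnitine shuttle and its control, 1 of 6 genes rose and 1 fell in case hearts, and the one that rose fell in treatment against case. Mlycd encodes malonyl-CoA decarboxylase, which removes the malonyl-CoA that blocks the shuttle. Its level was 31.8, 30.8 and 33.9 FPKM in control, 48.6, 50.4, 43.8 and 35.0 in case and 33.8, 32.9, 34.1 and 34.4 in treatment libraries. Case a to c stood well clear of the rest, and in FPKM case d was barely above the highest control and treatment libraries. With the scaling factors of the fit (1.061 for case d, 0.996 for control c, 0.998 for treatment d), case d was below control c and treatment d. The log2 fold change was 0.49 ± 0.138 (adjusted p = 0.0352) in case against control, lost without control a, b or c, case a or b, or treatment c or d (up to 0.117). In treatment against case it was -0.43 ± 0.127 (adjusted p = 0.0485), and that call was kept only without case d (adjusted p up to 0.136 in the other fits).

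Cpt2, the carnitine acyltransferase of the inner mitochondrial membrane, was at 106, 95.1 and 97.0 FPKM in control, 75.1, 82.6, 78.2 and 79.8 in case and 68.0, 82.1, 82.4 and 85.1 in treatment libraries. Both stressed groups were below all control libraries and overlapped each other. It fell by 0.32 on the log2 scale in case hearts (SE 0.0936, adjusted p = 0.0398), a call lost without control a, b or c, case a or c, or treatment b or c (adjusted p up to 0.154). Its difference between treatment and case was -0.02 ± 0.087. The remaining genes of this role had no call. Cpt1a, the liver form of the outer-membrane enzyme, was at 12.7 to 13.0 FPKM in control libraries and at 11.98, 12.4, 13.8 and 18.8 in case libraries, so that here case d was the high one. Acacb makes the malonyl-CoA that Mlycd removes, and its estimate was 0.31 in case against control without case d (adjusted p = 0.0355), against 0.20 ± 0.135 with it. The Acacb estimate in treatment against case was -0.34 without case d (adjusted p = 0.0179) and -0.23 ± 0.125 with it. Slc25a20, which carries acylcarnitines across the inner membrane, was within 0.09 of no change on the log2 scale in all 3 comparisons.

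Of the 15 matrix genes, 0 were called higher or lower by edgeR in any comparison. Calls were made for 2 of 7 regulators in case against control, and 8.21% of all genes were called higher and 7.55% lower. The difference between the roles was not tested. At an unadjusted p under 0.05, 1 was lower in case against control and 0 passed in the other comparisons, and DESeq2 called 1, Hadh, lower in case against control (adjusted p = 0.0378). Log2 fold changes ran from -0.34 to 0.22 in case against control (median -0.01), from -0.22 to 0.36 in treatment against case (median -0.05) and from -0.14 to 0.18 in treatment against control (median -0.03). Standard errors were 0.0773 to 0.321 in case against control, and the widest belonged to the low gene Etfb.

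Among the acyl-CoA dehydrogenases, which take the first step of each cycle, Acadl was at 552, 594 and 579.9 FPKM in control, 688, 657, 599 and 534 in case and 541, 525, 589 and 531 in treatment libraries. In FPKM case a to c were highest, with case d among the lower libraries. With the scaling factors of the fit (1.027 for case c, 0.997 for control b), case c was not above control b. Acadm was at 274, 262 and 281 FPKM in control, 262, 267, 289.9 and 244 in case and 276, 250.1, 270.0 and 253 in treatment libraries, and the groups overlapped throughout. Acadvl, at 434 to 472 FPKM in control, 418 to 509 in case and 437 to 495 in treatment libraries, overlapped as well, and so did Acads, the short-chain form.

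Hadha and Hadhb encode the α and β subunits of the trifunctional protein and lie head to head on chromosome 5 with 85 bases between them. Hadha was at 138 to 145 FPKM in control, 136 to 152 in case and 133 to 148 in treatment libraries. Hadhb was at 153 to 154, 147 to 168 and 167 to 196 FPKM, so that all treatment libraries were above all control libraries, with a log2 fold change of 0.18 ± 0.0919 that did not pass (adjusted p = 0.516). Hadh, which acts on shorter chains, was at 111 to 122 FPKM in control, 90.03 to 111 in case and 107 to 112 in treatment libraries (case against control -0.22 ± 0.0773, adjusted p = 0.0721). Acaa2, a thiolase of the last step, was at 362 to 397, 319.6 to 386 and 382 to 425 FPKM. The hydratase Echs1, the isomerases Eci1 and Eci2 and the reductase Decr1, which handle double bonds, and Etfdh, which passes electrons on to ubiquinone, were likewise without a call.

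The count of 0 for the matrix genes changed when case d was left out. Etfa, the α subunit of the electron transfer flavoprotein, was at 153 to 169 FPKM in control, 197, 206, 188 and 151 in case and 159 to 182 in treatment libraries. Without case d its log2 fold change was 0.34 in case against control (adjusted p = 0.0138), compared with 0.22 ± 0.13 with it. In treatment against case without case d, 3 were called lower, namely Acadl (-0.31), Eci2 (-0.34) and Etfa (-0.24), with adjusted p of 0.0145, 0.00784 and 0.0446. With case d the estimates of these genes were -0.22, -0.22 and -0.13.

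The 4 thioesterases and uncoupling proteins had the largest median change among roles with more than 2 genes. Their median log2 fold change was 0.83 in case against control and -1.10 in treatment against case, with 1 of 4 called higher in the first and 2 of 4 lower in the second. Ucp3 was at 13.0, 16.7 and 13.9 FPKM in control libraries, 18.7, 51.6, 23.4 and 23.9 in case libraries and 9.37, 9.02, 12.3 and 13.4 in treatment libraries. Case libraries were above all others, and case b was far above the other case libraries. It rose by 1.05 ± 0.322 on the log2 scale in case hearts (adjusted p = 0.0465), a call lost without any 1 of the control or treatment libraries (adjusted p up to 0.152), and the estimate was 0.57 without case b. It fell by 1.47 in treatment against case (SE 0.297, adjusted p = 0.0161), a call lost without treatment a or b (adjusted p up to 0.0527).

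Ucp2, an uncoupling protein found in many tissues including immune cells, lies 6904 bases from Ucp3 on chromosome 7. It was at 13.6, 11.6 and 12.8 FPKM in control, 21.2, 24.6, 17.3 and 12.4 in case and 7.66, 9.14, 8.68 and 9.61 in treatment libraries. Treatment libraries were below all others, and case d was within the control range. The fall of 1.15 on the log2 scale in treatment against case (SE 0.199, adjusted p = 0.00967) was kept whichever of the 11 libraries was omitted. In case against control the estimate was 0.61 ± 0.214 (adjusted p = 0.0751), and 0.78 without case d (adjusted p = 0.00169).

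Acot1, a cytosolic acyl-CoA thioesterase and a classical PPARα target in rodents, was at 3.77, 3.88 and 3.9 FPKM in control, 11.1, 8.41, 8.07 and 3.69 in case and 5.28, 2.39, 4.4 and 3.6 in treatment libraries. Case a to c were above all others and case d was below the lowest control. With all libraries neither estimate passed, at 1.05 ± 0.342 (adjusted p = 0.0568) and -1.04 ± 0.311 (adjusted p = 0.0514), and without case d they were 1.30 (adjusted p = 0.00147) and -1.29 (adjusted p = 0.00112). Its mitochondrial neighbour Acot2 was at 37.0 to 38.1 FPKM in control, 32.3 to 52.1 in case and 29.7 to 37.9 in treatment libraries and had no call. These paralogues share sequence, with 9.32% of the 100-base stretches of Acot1 and 17.1% of those of Acot2 found in the other, so reads may be split between them.

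The 2 ketone enzymes went in opposite directions in case hearts. Bdh1 encodes the mitochondrial enzyme that interconverts 3-hydroxybutyrate and acetoacetate. It was at 23.1, 12.1 and 23.9 FPKM in control, 40.5, 59.7, 41.4 and 25.1 in case and 34.4, 27.3, 25.6 and 24.0 in treatment libraries. All case libraries exceeded all control libraries in FPKM, with control b low and case d close to the controls. With the scaling factors of the fit (1.061 for case d, 0.996 for control c), case d was not above control c. Bdh1 rose by 1.11 ± 0.305 on the log2 scale (adjusted p = 0.031), a call lost without control a, b or c or case a or b (adjusted p up to 0.113). In treatment against case the estimate was -0.63 ± 0.275 (adjusted p = 0.145), and without case d it was -0.83 (adjusted p = 0.0165).

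Oxct1 encodes the enzyme that passes coenzyme A to acetoacetate, the committed step of ketone use outside the liver. Its level was 499.6, 510.0 and 502 FPKM in control, 352, 393, 409 and 376 in case and 448, 399, 440.1 and 388 in treatment libraries. All stressed libraries, treated or not, were below all control libraries, and here case d lay with the other case libraries. It fell by 0.39 on the log2 scale in case hearts (SE 0.0843, adjusted p = 0.0127), a call lost without any 1 of the control libraries (adjusted p up to 0.053). The difference between treatment and case was 0.10 ± 0.0784 and that between treatment and control -0.28 ± 0.0843 (adjusted p = 0.176).

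Ehhadh, which works on long-chain and dicarboxylic acyl-CoAs in peroxisomes, was at 6.22, 4.74 and 5.82 FPKM in control, 15.9, 21.6, 11.2 and 5.25 in case and 5.76, 5.27, 5.53 and 5.26 in treatment libraries. Case a to c were above every other library, while case d could not be told from control or treatment hearts. The log2 fold change was 1.31 ± 0.375 in case against control (adjusted p = 0.0362) and -1.37 ± 0.341 in treatment against case (adjusted p = 0.0308). The first call was kept only without case c, case d or treatment b, and the second was lost without case a, case b or any 1 of the treatment libraries, with adjusted p up to 0.126 and 0.0856. Without case d the estimates were 1.59 and -1.65.

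**Figure D4:**
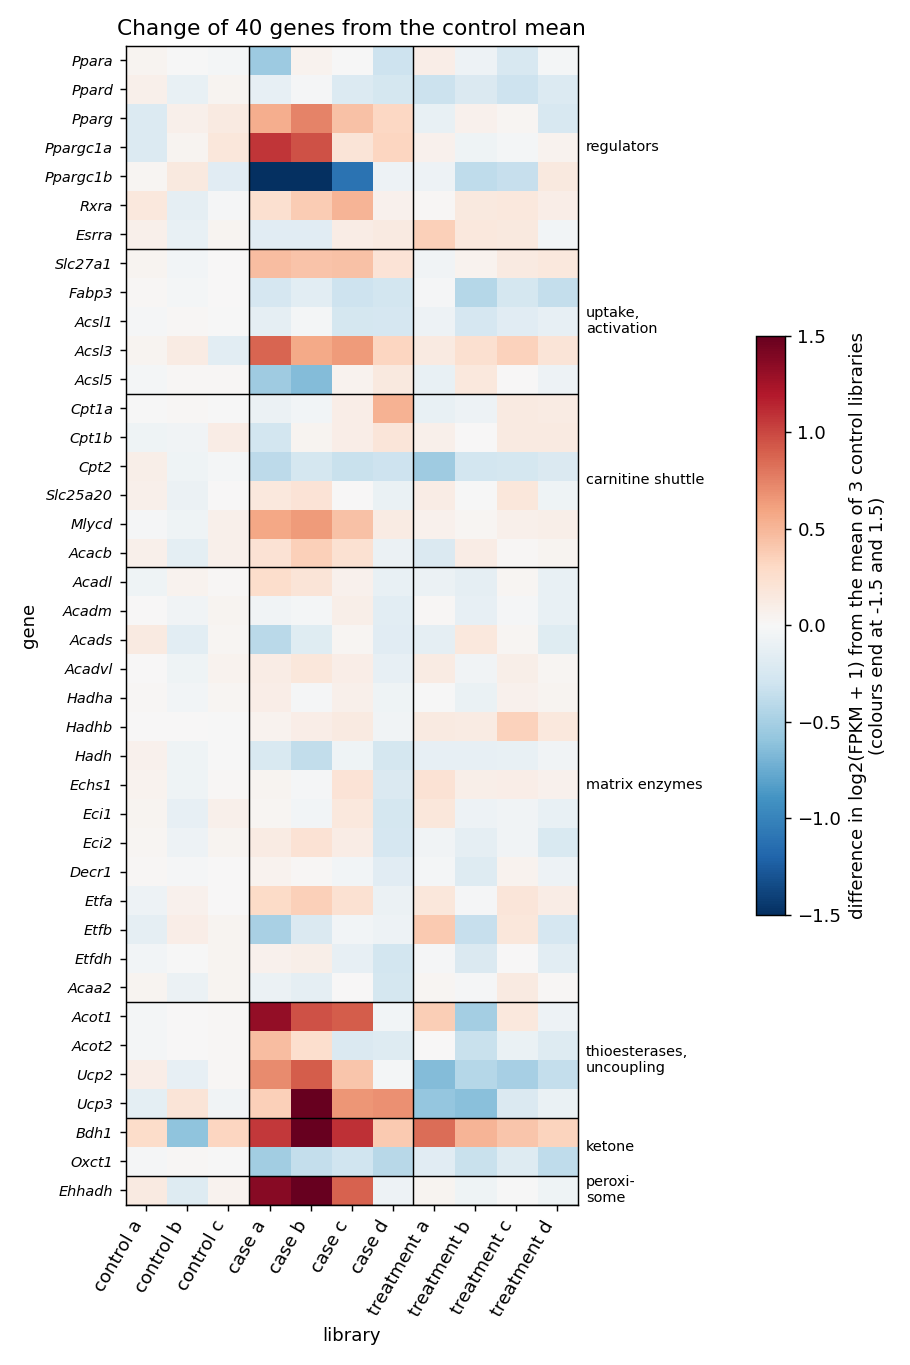
Difference of each gene from the mean of the 3 control libraries, in log2(FPKM + 1), by library (x axis) and gene within role (y axis), red for higher and blue for lower. In case a to c Ehhadh, Acot1 and Bdh1 are red and Ppargc1b is blue, whereas the median of the 15 matrix enzymes stays between -0.17 and 0.08 in the case libraries.

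Set side by side per library, the median difference of the 15 matrix genes from the control mean in log2(FPKM + 1) was 0.05, -0.01, 0.08 and -0.17 in case a to d and -0.09 to 0.06 in treatment libraries. That of the 7 regulators was -0.13, 0.05, 0.11 and 0.06 in case a to d, a median that hides the opposite differences of Ppargc1a and Ppargc1b. The 4 thioesterases and uncoupling proteins had medians of 0.58, 0.93, 0.54 and -0.04 in case a to d and -0.47 to -0.15 in treatment libraries. In summed level the matrix genes came to 2650 to 2770 FPKM in control, 2430 to 2850 in case and 2590 to 2850 in treatment libraries, so these ranges overlapped. The summed level of the 2 ketone genes, most of it Oxct1, was 522 to 526 FPKM in control, 392 to 452 in case and 412 to 483 in treatment libraries, without overlap between control and either stressed group.

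A wider list of 57 genes of the same pathways, of which 55 were tested, had 12 called higher and 1 lower in case against control, 2 higher and 10 lower in treatment against case, and 0 in treatment against control, where 7 passed an unadjusted p under 0.05 and DESeq2 called 2 lower. Without case d the wider list had 20 called higher and 4 lower in case against control. In treatment against case it had 9 higher and 22 lower. Over all 14050 genes that fit called 2310 higher and 2177 lower in case against control, and 2119 and 2271 in treatment against case. With all libraries, 1154 genes (8.21%) were called higher and 1061 (7.55%) lower in case against control. The counts were 608 (4.33%) and 923 (6.57%) in treatment against case, and 41 (0.292%) and 111 (0.79%) in treatment against control. By group, 3 of 8 tested further PPAR targets rose in case hearts and 3 fell in treatment against case, 3 of 18 tested further oxidation enzymes rose and 1 fell likewise, and 4 of 16 further regulators rose in case hearts, and 2 rose and 3 fell in treatment against case. Of 8 further uptake genes 1 rose and 1 fell in case hearts and 2 fell in treatment against case. Of the called genes, 5 are given with their values.

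Pdk4, the kinase that shuts down pyruvate dehydrogenase and so spares glucose, was at 129, 171 and 162 FPKM in control, 1224, 1778, 329.6 and 162 in case and 70.2, 98.1, 123 and 119 in treatment libraries. Case a and b were far above every other library, and case d was at the control level. The log2 fold change was 2.57 ± 0.683 in case against control (adjusted p = 0.0273), lost without any 1 control library or case a or b (adjusted p up to 0.105). It was -3.18 ± 0.627 in treatment against case (adjusted p = 0.015), and without case d the estimates were 2.93 and -3.53.

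Klf15, a transcription factor of cardiac lipid use, was at 24.2 to 28.7 FPKM in control, 88.3, 85.1, 66.5 and 23.3 in case and 17.8 to 28.0 in treatment libraries, with case d below the lowest control. Its estimates were 1.37 ± 0.374 (adjusted p = 0.0303) and -1.49 ± 0.34 (adjusted p = 0.0242). They were lost in 5 fits without 1 library (control a to c, case a or b) and in 6 (case a, case b or any treatment library), with adjusted p up to 0.106 and 0.0707.

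Angptl4, a secreted inhibitor of lipoprotein lipase, was at 1.1, 1.64 and 1.31 FPKM in control, 1.97, 3.57, 3.64 and 4.76 in case and 1.79, 2.77, 4.43 and 1.52 in treatment libraries. Case libraries were above control libraries, case d the highest, and overlapped treatment libraries. It rose by 1.36 ± 0.359 on the log2 scale in case hearts (adjusted p = 0.0265), a call lost without any 1 control library or case b (adjusted p up to 0.107). Gpihbp1, which holds lipoprotein lipase on the capillary wall, was at 21.6 to 22.0 FPKM in control, 39.6, 45.9, 34.2 and 16.7 in case and 15.7 to 17.6 in treatment libraries, and Pnpla2, the lipase that opens stored triglyceride, at 74.0 to 97.7, then 198, 205, 169 and 76.1, and 75.6 to 90.9 FPKM. In both, case a to c were high and case d was not. In case against control the estimates were 0.68 ± 0.273 (adjusted p = 0.111) for Gpihbp1 and 0.91 ± 0.288 (adjusted p = 0.0513) for Pnpla2, and without case d they were 0.92 (adjusted p = 0.000183) and 1.16 (adjusted p = 6.52e-05). Each fell in treatment against case, Gpihbp1 by 1.09 on the log2 scale (adjusted p = 0.0245) and Pnpla2 by 0.99 (adjusted p = 0.0366). The Gpihbp1 call was lost without case a or b or any 1 treatment library (adjusted p up to 0.0717), and the Pnpla2 call was kept only without case d (adjusted p up to 0.106 in the other fits).

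Markers of other cell types that whole hearts can hold were checked beside these results. Fat cells express Pparg and many of its targets. Of the 6 white adipocyte markers 4 were tested, and edgeR called 0 in any comparison, 0 passed an unadjusted p under 0.05 and DESeq2 called 0, and their summed level was 2.65 to 3.43 FPKM in control, 0.34 to 2.95 in case and 0.683 to 3.57 in treatment libraries. Adipoq, their defining marker, was at 0.0842 to 0.38 FPKM, and Lep at or near 0. Of the 4 brown adipocyte markers, Ucp1 was at 0.0533 FPKM or less and Elovl3 at 0.034 FPKM or less, whereas Cox8b was at 212 to 349 FPKM and Cidea at 11.9 to 26.3 FPKM. The latter pair was tested, and edgeR called 0 in any comparison, although 2 passed an unadjusted p under 0.05 in treatment against case, where DESeq2, and edgeR without case d, called Cidea lower. The summed level of all 4 was 274 to 314 FPKM in control, 228 to 299 in case and 282 to 367 in treatment libraries. Most of this sum was Cox8b, and it says little about Ucp1 or Elovl3.

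Macrophage, fibroblast and endothelial markers moved in part. In case against control 1 of 5 macrophage markers rose (Mrc1), 2 of 5 fibroblast markers rose (Pdgfra and Dcn) and 0 of 5 endothelial markers were called, and in treatment against case Mrc1, Dcn and the endothelial marker Pecam1 fell and Kdr rose. The summed macrophage level was 84.3 to 87.7 FPKM in control, 70.2 to 133 in case and 80.8 to 114 in treatment libraries, and the fibroblast level 196 to 219, 134 to 423 and 155 to 302. Erythroid markers rose in both stressed groups against control, 4 of 5 in each, with summed levels of 220 to 261 FPKM in control, 602 to 1050 in case and 789 to 1700 in treatment libraries. Of 8 cardiomyocyte markers 1, Myl2, fell in case hearts. Liver markers were at or near 0 apart from Ttr, which rose in case hearts from at most 0.21 FPKM in control to 0.143 to 1.4 FPKM, and skeletal muscle markers summed to 1.42 FPKM or less. Without case d, Actc1, Myl3, Kdr and Tie1 were also called lower and Pecam1 and Slc4a1 higher in case against control. In treatment against case, that fit added Myl2 and Hbb-bt as higher and Cidea and Ttr as lower. In treatment against control it added Kdr and Slc4a1 as higher. The part of these cell types in the results was not tested.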

How the data were processed

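The deposited table holds counts per gene made by the authors for 11 paired-end heart libraries, with each gene's length. FPKM was computed here from the deposited counts as count over length over library total, and the 11 FPKM columns of the table were not used. These FPKM values do not include the TMM scaling of the edgeR fit. The submitters' notes name cutadapt, HISAT2, TopHat2 and mm10. How reads were counted, on which strand and across shared exons, is not given in the sources used here. Single-end samples of the series were not analysed here.

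The columns are named by group number and letter. Group numbers 2 and 3 were read as case and treatment from the paper's tables and the remaining columns as control, and no letter could be tied to a replicate number. All 11 libraries entered 1 edgeR (version 4.0.16) quasi-likelihood fit of the counts with TMM scaling, edgeR's default filter on low counts (14050 of 21898 genes kept) and a mean per group, and p-values were adjusted by the Benjamini-Hochberg method over all genes tested. A call is an adjusted p under 0.05. The fit was tested on simulated data. P-values measure the spread between these libraries. Total counts of 29410822 to 34412849 per library set the counting error, which matters for the lowest members.

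Alternatives were DESeq2 (version 1.42.0) scaling, its Wald test (12 genes had an adjusted p of NA), no filter, only the 2 groups compared, limma (version 3.58.1) on log2(FPKM + 1) or log2(FPKM + 0.1), the study's thresholds (unadjusted p under 0.05 and absolute log2 fold change above 1), and leaving out each library in turn. The members and gene lists were chosen with earlier results of these data known. Per-library values are printed for the 7 regulators and for other members with an adjusted p under 0.05 in any comparison, and for further pathway genes, at most 6 by largest fold change among those called, of which 1 is not reported here. Other members named with values in each library were chosen after their values were seen.

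Gene positions come from GENCODE M21 (mm10) by gene ID, since the start and end in the table equal those of M21 for only 1 of 40 members, although the gene length equals the M21 exon bases for 38. Promoter windows come from RefSeq (GRCm38.p6).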

Additional observations from a re-analysis of the deposited data

Results flagged for a closer look

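Each member was looked at in the case and in the treatment group for 1 library far from the other 3, which gave 80 groups of 4 libraries, and chance alone flags about 1 in 20 of them. In case hearts, Slc27a1 was at 26.3 FPKM in library d, below the 30.8 to 31.6 FPKM of the others, and Ucp3 was at 51.6 FPKM in library b, above the 18.7 to 23.9 FPKM of the others. In treatment hearts, Hadhb was at 196 FPKM in library c, above 167 to 171 FPKM, and Hadh was at 112 FPKM in library d, above 107 to 108 FPKM. The cause was not tested for any of these 4 values.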

How the results depend on the processing

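No named gene changed direction where it had a call. In case against control, the 8 members called higher became 1 with only the 2 groups compared, 5 with limma on log2(FPKM + 1) and 4 by the study's thresholds, and 0 to 13 when 1 library was left out. The 2 called lower became 4 with DESeq2, 1 with only the 2 groups and 1 by the study's thresholds, and 0 to 3 without 1 library. In treatment against case, the 0 called higher became 0 to 1 without 1 library, and the 7 called lower became 2 with only the 2 groups, 4 by the study's thresholds and 1 to 15 without 1 library. In treatment against control, the 0 called lower became 1 with DESeq2 and 4 with only the 2 groups (Ppard, Cpt2, Ucp2 and Oxct1), and 0 to 0 without 1 library. The fits without 1 library have fewer residual degrees of freedom, and the one that raised the counts left out case d. Over all genes, the 1154 called higher and 1061 lower in case against control became 389 and 465 with only the 2 groups and 298 to 2310 and 409 to 2177 without 1 library. The 608 and 923 of treatment against case became 1086 and 1473 with DESeq2, 82 and 194 with only the 2 groups, and 130 to 2119 and 238 to 2271 without 1 library. The 41 and 111 of treatment against control became 141 and 275 with DESeq2, 33 and 168 with limma on log2(FPKM + 1), 293 and 523 with only the 2 groups, and 3 to 100 and 17 to 246 without 1 library. Over the 16 members with values by library, the fits without 1 library left 425 values on their side of the threshold, took 96 calls away and gave 7. The 425 hold both calls that were kept and values that had no call in either fit. They are therefore not a count of calls kept. No paired analysis was possible because the column letters carry no replicate number. Groups of 3 and 4 limit the precision, with standard errors of the 40 members up to 0.375 on the log2 scale (Ehhadh, case against control).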
